A study of Mus musculus with 6 samples.

Results

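The cell cycle and DNA replication genes examined here were 50 named mouse genes, 29 of the G2 phase and mitosis (the G2/M set) and 21 of DNA synthesis (the S phase set), among 22815 genes with a named probe on the arrays. They were picked by gene name, with no threshold on a measured value, and each gene was read from its brightest probe over all 6 arrays. RNA came from whole lungs of 3 saline-treated and 3 rhTM-treated mice, with 1 array per lung. All 6 were male C57BL6 mice, 10 weeks old, starved for 16 h and given LPS from bacteria at 20 mg/kg into the peritoneum. Saline or rhTM, a soluble recombinant human thrombomodulin, followed 3 and 24 h after LPS, and the lungs were taken at 30 h. Thrombomodulin is an endothelial protein that binds thrombin and helps it to activate protein C. Every mouse had received LPS, so the arrays hold no level of these genes in an uninjured lung.

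A dividing cell first copies its DNA in S phase and then separates the copies in mitosis. MCM proteins are loaded on origins by Cdc6 and Cdt1 and form the replicative helicase with Cdc45 and the GINS complex, while cyclins switch on the kinases that drive each step. Transcription of the S phase genes is largely driven by E2F factors. That of the G2/M genes runs through CHR elements, which recruit the MuvB complex with B-Myb and FoxM1, and through CCAAT boxes, which other factors bind. Few cells cycle in a resting adult lung, whereas endothelial, epithelial and immune cells can enter the cycle during repair.

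Promoter sequences show how the sets differ in the elements named above. RefSeq promoters on GRCm38.p6, running from 250 bases before to 50 bases after the start site, were found for 41 of the 50 members, as 25 promoters of the G2/M set and 19 of the S phase set. CHR was searched as TTTGAA or TTCGAA, the CCAAT box as CCAAT, and the E2F element as TTTCCCGC, TTTCGCGC, TTTGCCGC or TTTGGCGC, each on both strands. The windows below lie before the start site and were chosen for holding several of these matches, except that of Cdc45, shown because its groups did not overlap. Inside these windows all matches to the 3 motifs are in capitals. Cdk1, Cdc20, Ube2c and Mki67 belong to the G2/M set, and Mcm5, Mcm6 and Cdc45 to the S phase set. The Cdc45 promoter held no E2F match. Outside its window it held CHR matches that begin at bases -240 and 11 from the start site, and a CCAAT box that begins at -2.
Cdk1 (chr10:69352913-69353047, minus strand): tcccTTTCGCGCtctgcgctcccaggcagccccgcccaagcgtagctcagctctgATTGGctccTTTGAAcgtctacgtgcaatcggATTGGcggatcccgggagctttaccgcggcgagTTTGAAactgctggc
Cdc20 (chr4:118437344-118437403, minus strand): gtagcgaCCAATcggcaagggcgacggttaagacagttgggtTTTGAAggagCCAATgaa
Ube2c (chr2:164769834-164769928, plus strand): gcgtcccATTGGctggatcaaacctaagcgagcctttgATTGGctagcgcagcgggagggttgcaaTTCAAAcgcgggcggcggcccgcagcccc
Mki67 (chr7:135716469-135716574, minus strand): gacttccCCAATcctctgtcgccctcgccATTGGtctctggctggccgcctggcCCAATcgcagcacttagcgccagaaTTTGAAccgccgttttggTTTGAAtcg
Mcm5 (chr8:75109354-75109508, plus strand): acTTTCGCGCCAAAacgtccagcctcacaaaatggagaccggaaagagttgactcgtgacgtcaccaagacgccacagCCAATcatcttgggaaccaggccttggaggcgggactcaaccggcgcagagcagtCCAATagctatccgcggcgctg
Mcm6 (chr1:128359706-128359820, minus strand): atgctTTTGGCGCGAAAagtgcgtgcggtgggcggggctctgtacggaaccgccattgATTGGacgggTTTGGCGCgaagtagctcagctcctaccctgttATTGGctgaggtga
Cdc45 (chr16:18811980-18812032, minus strand): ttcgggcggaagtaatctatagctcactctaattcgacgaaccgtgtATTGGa

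CHR was present in 80% of the G2/M promoters, in 21.1% of the S phase promoters and in 19.2% of all 32851 promoters of the table. A CCAAT box was present in 84%, 63.2% and 37.4% of them, and both elements together in 76%, 21.1% and 7.52%. The E2F element showed the opposite order, with 4% of G2/M promoters, 36.8% of S phase promoters and 2.26% of all promoters. Cdk1 was the only G2/M member with an E2F match, and in Mcm5 and Mcm6 overlapping matches on opposite strands formed the capital runs above. A match is a description of the letters and not a site shown to be bound.

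**Figure D1:**
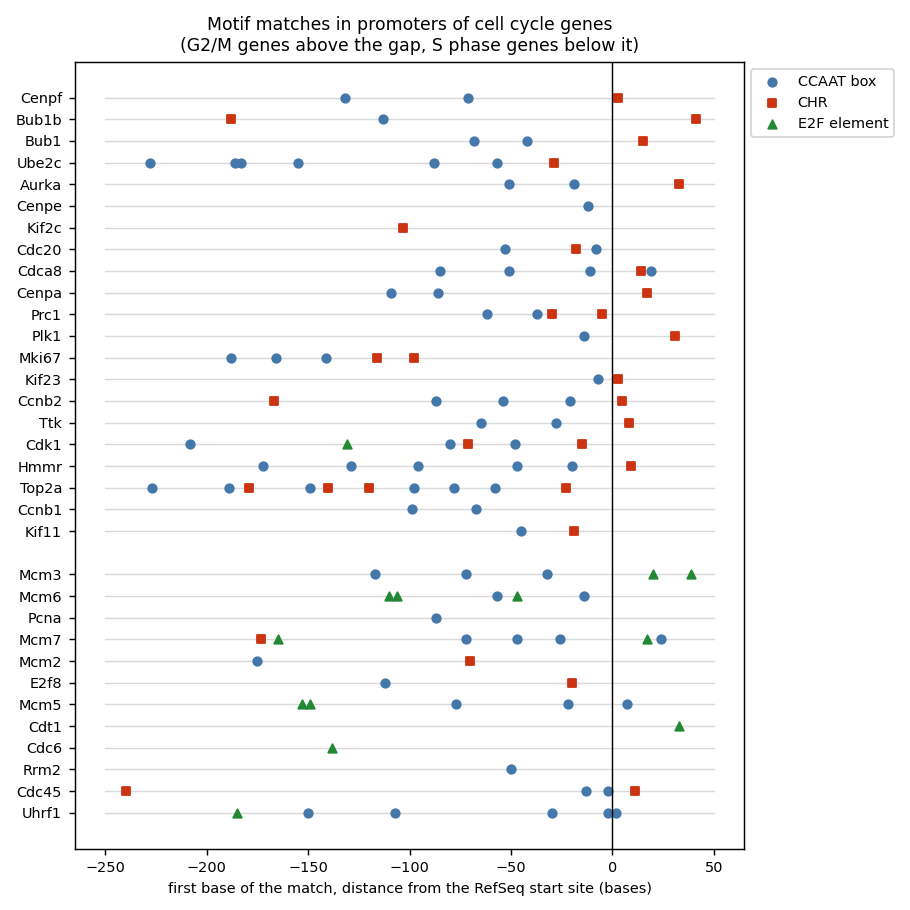
Positions of CCAAT box, CHR and E2F element matches in the promoters of members that hold at least 1 match, as distance in bases from the RefSeq start site (x axis), with 1 line per gene (y axis). Red CHR squares lie mostly in the G2/M block, where 80% of promoters hold one, and green E2F triangles mostly in the S phase block, where 36.8% do.

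Values below are scaled signals, meaning the processed signal of a probe divided by the 75th percentile of its own array, and differences are log2 fold changes of rhTM over saline, given ± SE with 3 arrays per group. Levels are set side by side within a gene only. Tests covered the 16370 genes with a probe called well above background by the scanner software on every array of saline, of rhTM or of both. The arrays had between 36002 and 40503 probes above background, the fewest on rhTM replicate 1 and the most on saline replicate 1. The spike-in dose slope of saline replicate 1 was 0.826, against 1.07 to 1.09 on the other arrays. Markers of lung cells were present throughout, with 10 of 10 alveolar type 2 markers and 12 of 12 endothelial markers above background on all 6 arrays. In the study's own value table between 99.8% and 99.9% of the 56605 probes equalled the scanner signal of an array within 0.1%, but with saline replicate 1 and rhTM replicate 2 exchanged relative to the scanner files. Which assignment is right could not be settled, so members whose sign or overlap turned on it are given by both.

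Cell cycle genes were detected in these lungs, and no member passed the test between rhTM and saline. Of the 50 members, 47 were tested, 27 of the G2/M set and 20 of the S phase set, and limma called 0 of them at an adjusted p under 0.05, with 0.0% of all genes called higher and 0.0% called lower. Among the members the lowest adjusted p was 0.999938, and in the study's table it was 0.369. At an unadjusted p under 0.05, limma held 1 member, Cdc45, beside 1.87% of all genes. By the study's table it held 0 members beside 14.0% of all genes. The methods' t-test held 1 member at an unadjusted p under 0.05 beside 2.08% of all genes, and its lowest adjusted p over all genes was 0.999946. No member reached the fold and p thresholds of the methods, which 6 genes reached by limma and 1 gene by the methods' t-test.

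Most members nevertheless had a lower mean with rhTM. The mean was lower in 26 of 27 G2/M members (median log2 fold change -0.18) and in 17 of 20 S phase members (median -0.10). Over all genes 49.3% had a lower mean and the median was 0.0026. With the study's table, 22 G2/M and 13 S phase members were lower, with medians of -0.12 and -0.09, beside 54.0% of all genes. Members share the arrays, so these counts are not counts of independent results. The 95% intervals of 46 of the 47 members included 0, the exception being Cdc45. In RNA of whole lungs, fewer cycling cells and less RNA per cell cannot be told apart.

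**Figure D2:**
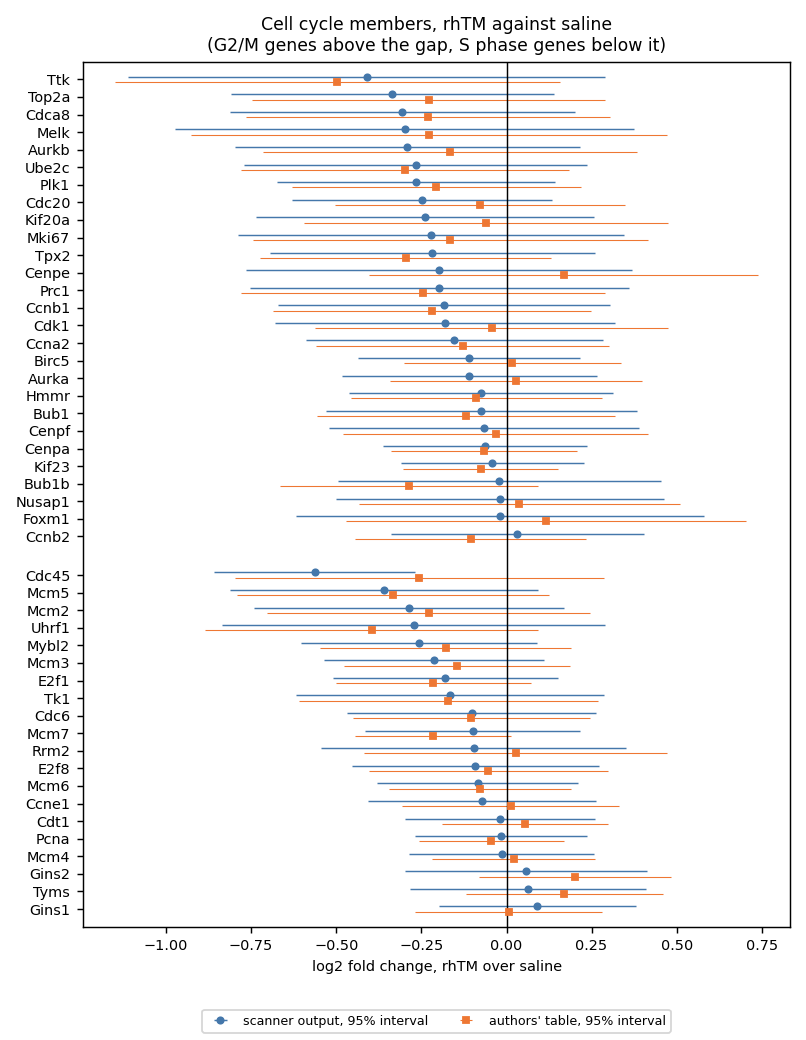
Log2 fold change of rhTM over saline (x axis) for each of the 47 members tested (y axis), by the scanner output (blue circles) and by the study's table (orange squares), with 95% intervals from limma on 3 against 3 arrays. Points lie mostly left of 0, and Cdc45 by the scanner output is the only blue interval that leaves out 0.

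The lower means were spread unevenly over the lungs. The array of rhTM replicate 1 was the lowest of the 6 in 22 of 27 G2/M members and 12 of 20 S phase members, 72.3% of both sets, against 26.6% of all genes. Saline replicate 2 was the highest in 28 of the 47, or 59.6%, against 20.6% of all genes. Averaged over the G2/M members, the log2 signal minus the gene's own mean was 0.15, 0.22 and -0.11 on the saline arrays and -0.37, 0.09 and 0.02 on the rhTM arrays. Over the S phase members it was 0.10, 0.17 and -0.07 with saline and -0.22, 0.04 and -0.02 with rhTM. Saline replicate 3 thus lay below rhTM replicates 2 and 3 in both sets, and the groups overlapped.

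Without rhTM replicate 1 the medians were -0.05 for the G2/M set and -0.02 for the S phase set, and 31 of the same 47 members had a lower mean. By the study's table without that array they were 0.03 and -0.04. Without saline replicate 2 they were -0.11 and -0.05, and without saline replicate 3 they were -0.31 and -0.19, with 19 of 49 members below without overlap beside 8.24% of all genes. Within slides, the G2/M median was -0.18 on slide 1, which held saline replicates 2 and 3 and rhTM replicates 1 and 2, and -0.12 on slide 2, which held saline replicate 1 and rhTM replicate 3. The S phase medians were -0.12 and -0.09. By the study's table slide 2 held 2 rhTM arrays and no saline array. Slide 1 then set 3 saline arrays against rhTM replicate 1 alone, with medians of -0.43 and -0.29.

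**Figure D3:**
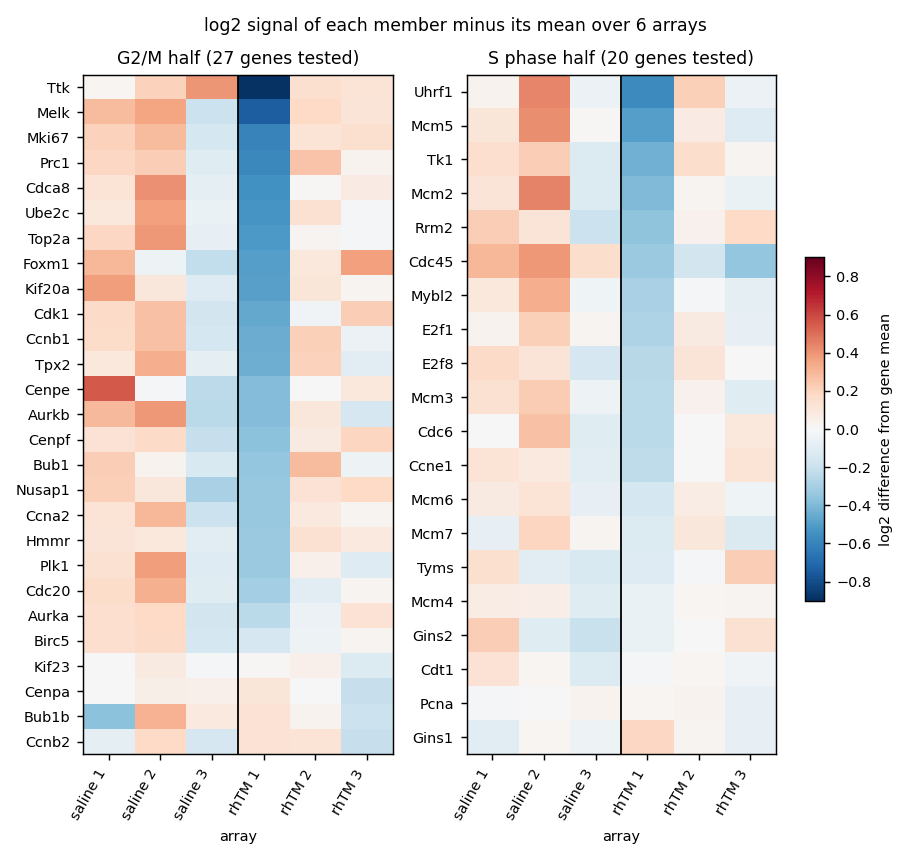
Log2 signal of each tested member minus its mean over the 6 arrays (colour, red above and blue below the mean), with arrays in columns and genes in rows, sorted by rhTM replicate 1. The column of rhTM replicate 1 is blue for most genes, and the rows at the bottom (Ccnb2, Bub1b, Cenpa and Gins1, Pcna, Cdt1 among them) do not share it.

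Proliferation markers followed this array pattern closely. Mki67, which encodes the Ki-67 antigen of cycling cells, gave 2.73, 2.88 and 2.12 with saline and 1.56, 2.58 and 2.61 with rhTM. Only rhTM replicate 1 lay below all saline arrays, and saline replicate 3 lay below both other rhTM arrays. Its difference was -0.22 ± 0.24 (SE, n = 3 arrays per group), with a 95% interval from -0.79 to 0.35 and an exact permutation p of 0.5, and it was 0.02 without rhTM replicate 1. Top2a, the topoisomerase that untangles sister chromosomes, gave 0.911, 1.05 and 0.760 with saline and 0.558, 0.815 and 0.793 with rhTM, a difference of -0.34 ± 0.20. Saline replicate 3 was again within the rhTM range.

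Of the mitotic kinase and its cyclins, most were lowest on rhTM replicate 1. Cdk1, the kinase that starts mitosis, gave 0.209, 0.223 and 0.166 with saline and 0.135, 0.182 and 0.217 with rhTM, a difference of -0.18 ± 0.21. Ccnb1, the cyclin B1 partner of Cdk1, gave 0.575, 0.617 and 0.461 with saline and 0.377, 0.596 and 0.496 with rhTM, a difference of -0.18 ± 0.20. Ccna2, cyclin A2 of S phase and G2, had a difference of -0.15 ± 0.18. In all 3 genes saline replicate 3 was the second lowest array. Ccnb2, cyclin B2, behaved differently, with 0.964, 1.16 and 0.920 on the saline arrays and 1.12, 1.11 and 0.882 on the rhTM arrays. Here rhTM replicate 3 was lowest and the difference was 0.03 ± 0.16, the only positive one of the G2/M set, but it was -0.11 by the study's table.

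Kinases and regulators of mitosis had lower means with overlapping groups. Plk1, the polo-like kinase of mitotic entry and spindle assembly, gave 1.15, 1.36 and 0.969 with saline and 0.834, 1.08 and 0.969 with rhTM, a difference of -0.27 ± 0.17. Aurkb, the kinase of the chromosomal passenger complex, gave 0.285, 0.306 and 0.197 with saline and 0.178, 0.250 and 0.210 with rhTM, a difference of -0.29 ± 0.21. Aurka, the spindle pole kinase, had a difference of -0.11 ± 0.16 and had 0.03 by the study's table, so its sign depended on the assignment of the arrays. Bub1, a kinase of the spindle checkpoint, had a difference of -0.07 ± 0.19.

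Ttk, the Mps1 kinase of the spindle checkpoint, lay near background. Its values were 0.0468, 0.0532 and 0.0607 with saline and 0.0250, 0.0511 and 0.0504 with rhTM, and it was not well above background on rhTM replicate 1. Only that array lay below the saline range, which held rhTM replicates 2 and 3. Ttk was tested because all 3 saline arrays passed, so its difference over all arrays is not given. Without rhTM replicate 1 the difference was -0.07. By the study's table every rhTM array of Ttk lay below every saline array, and the difference is not given for the same reason. In that table with the slide as a block, Ttk was the 1 member called, lower with rhTM, where 1.5% of all genes were called lower and 1.15% higher. That fit set rhTM replicate 1 alone, where Ttk had no more than an upper bound, against the 3 saline arrays. The call thus rests on that 1 array and gives no size of a difference.

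Genes of the anaphase-promoting complex were next. Cdc20, which activates the complex, gave 1.42, 1.59 and 1.17 with saline and 1.03, 1.19 and 1.29 with rhTM, a difference of -0.25 ± 0.16. Ube2c, the ubiquitin-conjugating enzyme of the complex, gave 0.631, 0.765 and 0.567 with saline and 0.409, 0.652 and 0.589 with rhTM, a difference of -0.27 ± 0.21. In both genes only part of the rhTM arrays lay below the saline range. Birc5, or survivin, of the passenger complex, had a difference of -0.11 ± 0.14, and Cenpa, the histone of centromeres, one of -0.06 ± 0.13. Birc5 had 0.02 by the study's table.

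Foxm1 encodes a transcription factor that drives the G2/M genes. Its values were 0.436, 0.342 and 0.303 with saline and 0.251, 0.378 and 0.458 with rhTM. The groups overlapped throughout, since the highest and the lowest array both came from rhTM. The difference was -0.02 ± 0.25, against 0.12 by the study's table and 0.22 without rhTM replicate 1. The remaining 11 G2/M members tested, Bub1b, Cenpe, Cenpf, Kif20a, Kif23, Tpx2, Nusap1, Prc1, Melk, Cdca8 and Hmmr, ranged from -0.31 in Cdca8, of the passenger complex, to -0.02 in Nusap1, a microtubule-bundling protein of the spindle. The sign turned by the study's table in Nusap1, to 0.04, and in Cenpe, a centromere-bound kinesin, from -0.20 to 0.17. Hmmr, singled out after its values were seen, had a second probe with 0.030, 0.050 and 0.0378 on the saline arrays and 0.0460, 0.0405 and 0.338 on the rhTM arrays. That probe was high on rhTM replicate 3 only, whereas the brighter Hmmr probe had a difference of -0.07.

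The replicative helicase genes gave a graded set of values. Mcm5 gave 2.06, 2.55 and 1.92 with saline and 1.35, 2.00 and 1.76 with rhTM, a difference of -0.36 ± 0.19 and an exact permutation p of 0.2. Mcm2 gave 1.14, 1.44 and 0.967 with saline and 0.802, 1.07 and 1.01 with rhTM, a difference of -0.29 ± 0.19. Mcm3 gave 3.71, 3.94 and 3.27 with saline and 2.84, 3.46 and 3.12 with rhTM, a difference of -0.21 ± 0.14. Each of these 3 had at least 1 rhTM array inside the saline range. Mcm6 and Mcm7 had differences of -0.08 ± 0.12 and -0.10 ± 0.13. A second, dimmer Mcm7 probe, singled out after its values were seen, gave 0.0675, 0.0559 and 0.0671 with saline and 0.0394, 0.0395 and 0.0398 with rhTM, without overlap. Its difference was -0.68, and -0.16 by the study's table, and of the 19 other probes of members that stood above background on all arrays it was the only one without overlap. Of all 6947 such probes of tested genes, 4.84% lay below without overlap. Mcm4, a subunit of the same complex, gave 4.74, 4.71 and 4.19 with saline and 4.33, 4.57 and 4.60 with rhTM, with a difference of -0.01 ± 0.11 and 0.02 by the study's table. By that table every rhTM array of Mcm7 lay below every saline array, with a difference of -0.22, as was the case for 12.0% of all genes, and no member lay above without overlap, as 9.68% of all genes did.

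Cdc45, which joins the MCM ring to the GINS complex, was the only member whose groups did not overlap at its brightest probe by the scanner output. Its values were 0.0915, 0.0974 and 0.0832 with saline and 0.0590, 0.0664 and 0.0585 with rhTM. The probe was well above background on all 6 arrays but dim, with log2 values of -4.08, -3.91 and -4.10 on the rhTM arrays. The dimmest probes called well above background there had -5.15, -5.42 and -5.09. Every rhTM array lay below every saline array in this 1 of 47 members (2.13%), a share near the 2.57% of all genes, and no member had every rhTM array above, as in 2.95% of all genes. The difference was -0.56 ± 0.12, with a 95% interval from -0.86 to -0.27, an exact permutation p of 0.1, the smallest that 3 against 3 arrays allow, and a limma adjusted p of 0.999938. Without rhTM replicate 1 the difference was -0.54, close to the full value. Within slides it was -0.52 and -0.64. A second Cdc45 probe gave -0.20, and by the study's table the main probe gave -0.26 with overlapping groups.

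The GINS subunits and the loading factors had overlapping groups. Gins1 gave 0.601, 0.653 and 0.624 with saline and 0.736, 0.657 and 0.613 with rhTM, a difference of 0.09 ± 0.12, the highest of all members. It was highest on rhTM replicate 1, the array on which most members were lowest, but its other probe gave -0.06. Gins2 had a difference of 0.06 ± 0.15, with -0.04 at its other probe. Cdc6, the ATPase that loads the helicase, had a difference of -0.10 ± 0.15. Cdt1, its partner in loading, gave 3.26, 3.02 and 2.74 with saline and 2.94, 3.01 and 2.92 with rhTM, a difference of -0.02 ± 0.12. All rhTM arrays of Cdt1 lay inside the saline range, and the difference was 0.06 by the study's table.

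Genes of nucleotide supply and of the replication clamp had differences smaller than their errors. Pcna, the sliding clamp of DNA polymerases, gave 12.4, 12.5 and 12.8 with saline and 12.6, 12.8 and 11.9 with rhTM. Its difference of -0.02 ± 0.11 had the narrowest error of all members, with a 95% interval from -0.27 to 0.24. Rrm2, the ribonucleotide reductase subunit made in S phase, gave 2.01, 1.87 and 1.51 with saline and 1.34, 1.77 and 1.95 with rhTM, a difference of -0.10 ± 0.19 that was 0.03 by the study's table. Tyms, thymidylate synthase, gave 2.17, 1.83 and 1.78 with saline and 1.82, 1.95 and 2.29 with rhTM, a difference of 0.06 ± 0.15. Tk1, thymidine kinase 1, had a difference of -0.17 ± 0.19. In Tyms and Rrm2 saline replicate 3 was below rhTM replicates 2 and 3, as it was in 12 of 20 S phase members and 21 of 27 G2/M members.

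**Figure D4:**
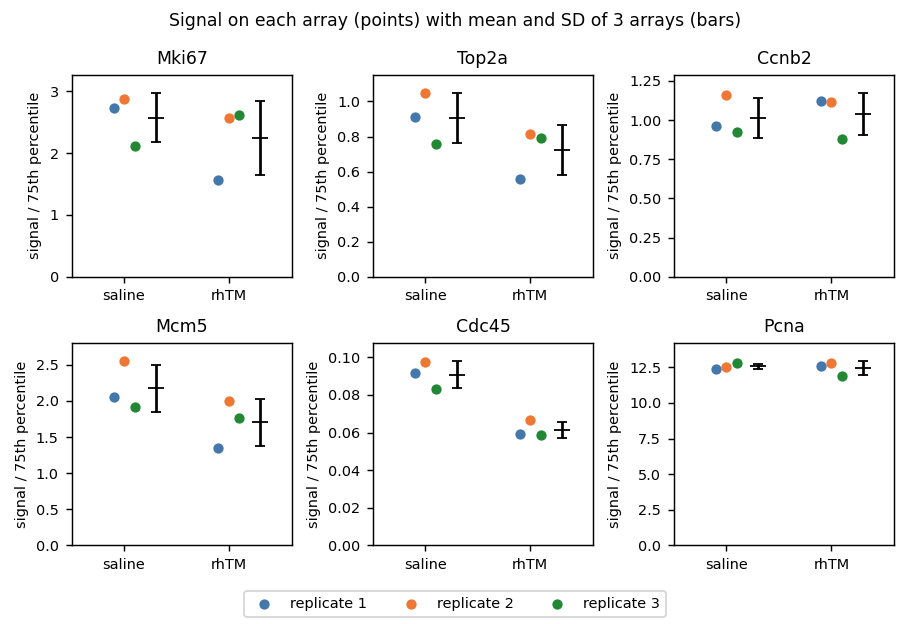
Scaled signal (y axis, from 0) of 6 members on each saline and rhTM array (points coloured by replicate number), with the mean and SD of the 3 arrays (black bars). The groups overlap in Mki67, Top2a, Ccnb2, Mcm5 and Pcna, and in Cdc45 all rhTM points lie below the saline points.

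Transcription factors of the G1 to S transition were measured as well. E2f1, an activator of S phase genes, gave 0.684, 0.778 and 0.681 with saline and 0.553, 0.710 and 0.635 with rhTM, a difference of -0.18 ± 0.14. Mybl2, or B-Myb, gave 1.28, 1.5 and 1.17 with saline and 0.982, 1.18 and 1.14 with rhTM, a difference of -0.26 ± 0.15. In each gene only 1 rhTM array reached the saline range. Ccne1, cyclin E1 of the G1 to S transition, had a difference of -0.07 ± 0.14 and had 0.01 by the study's table. The remaining S phase members, the E2F repressor E2f8 and Uhrf1, which helps to copy DNA methylation, had -0.09 ± 0.15 and -0.27 ± 0.24.

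No test was made for Kif11, Kif2c and Ccne2, which were not well above background on every array of either group. Kif11, the kinesin that pushes spindle poles apart, gave 0.0594, 0.0441 and 0.0286 with saline and 0.0225, 0.0342 and 0.0598 with rhTM, and stood well above background on 2 arrays of each group. Kif2c, a microtubule-depolymerising kinesin, was likewise above background on 2 arrays of each group. Ccne2, cyclin E2, was above background on 1 array, rhTM replicate 2, where it gave 0.0383 against 0.00401 to 0.0101 elsewhere. In 18 members at least 2 probes stood above background on all arrays, and in 15 of these the probes had the same sign by the scanner output. By the study's table the signs of such probes differed in Ccna2, Ccnb1, Cdca8, Hmmr, Tyms and Gins2.

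Other genes of the cycle, taken from lists of textbook roles, were described in the same way. Of 61 other mitosis genes tested 48 had a lower mean, with a median of -0.08, and of 57 other replication genes 37, with a median of -0.08. In the study's table the lower ones were 37 and 38, both with a median of -0.07. Without rhTM replicate 1 the lower ones were 34 of 61 and 37 of 58, both with a median of -0.02. That array was the lowest in 31 of 61 and 22 of 57 of them. None of either list was called. By limma 1 gene of each, Fam83d and Chek1, had an unadjusted p under 0.05, beside 1.87% of all genes. Fam83d, a spindle protein, gave 0.0302, 0.0402 and 0.0343 with saline and 0.0227, 0.0290 and 0.0211 with rhTM, without overlap, but it was well above background on rhTM replicate 2 alone of the rhTM arrays. It was tested because all 3 saline arrays passed, so its difference is not given. Chek1, the checkpoint kinase of stalled replication forks, was also below on every rhTM array, with -0.35 ± 0.13, as was E2f2, an E2F factor, with -0.13. These were 1 of 61 and 2 of 57 genes, and 2.57% of all genes lay below without overlap. Timeless, which protects replication forks, was above on every rhTM array, with 1.81, 1.97 and 2.23 on the saline arrays and 3.47, 2.33 and 2.36 on the rhTM arrays, a difference of 0.42 ± 0.19. It was highest on rhTM replicate 1 and had 0.23 without that array. It was the only gene of both lists above without overlap, as 2.95% of all genes were. The groups overlapped in all 4 of these genes by the study's table, with -0.29 for Chek1, -0.10 for E2f2 and 0.18 for Timeless. Other genes stood apart there, with 5 of 61 mitosis genes below and 2 above, and 6 of 57 replication genes below and 5 above, beside 12.0% and 9.68% of all genes.

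Of the cyclins and drivers of G1, 10 of 17 were lower, with a median of -0.03. In the study's table the count was 12 of 17 with a median of -0.10 and 2 below without overlap, beside 54.0% and 12.0% of all genes, and without rhTM replicate 1 it was 4 of 17 with a median of 0.03. Ccnd1, cyclin D1, gave 15.4, 21.1 and 15.3 with saline and 9.18, 18 and 12.7 with rhTM, a difference of -0.41 ± 0.27. It too was lowest on rhTM replicate 1. Ccnd2 and Ccnd3, the other D cyclins, had differences of 0.07 ± 0.14 and 0.03 ± 0.11, and Myc, a growth-promoting transcription factor, one of 0.16 ± 0.21. Myc had -0.11 by the study's table and 0.01 without rhTM replicate 1. Inhibitors and arrest genes were evenly split, with 13 of 27 lower and a median of 0.0018, but the median was -0.10 by the study's table. Cdkn1a, the p21 inhibitor, had a difference of -0.07 ± 0.15, Cdkn1b, the p27 inhibitor, one of 0.07 ± 0.12, and Cdkn1c, the p57 inhibitor, one of -0.18 ± 0.29. Of the inhibitors 5 lay below without overlap in the study's table, Cdkn1c among them with -0.54, and 3 above, Cdkn1b among them with 0.11, of 27 genes and beside 12.0% and 9.68% of all genes. Cdkn1c had 0.14 without rhTM replicate 1. Btg1, an antiproliferative gene, gave 15.1, 14.1 and 16.1 with saline and 27.2, 15.4 and 16.6 with rhTM, so that rhTM replicate 1 stood above all other arrays.

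Markers of 2 cell types were, like the members, mostly lowest on rhTM replicate 1. Of 10 markers of monocytes and macrophages, all above background on every array, 9 had a lower mean with rhTM, the median was -0.23, and rhTM replicate 1 was lowest in 7. Their summed signal ranged from 402 to 434 with saline and from 358 to 407 with rhTM. Their mean log2 deviations were 0.24, 0.22 and -0.05 on the saline arrays and -0.37, 0.02 and -0.06 on the rhTM arrays. In 4 of them, Ccr2, Ly6c2, C1qa and C1qb, every rhTM array lay below every saline array, beside 2.57% of all genes. In the study's table none of the 10 lay below and 1 lay above without overlap, beside 12.0% and 9.68% of all genes. Of 10 alveolar type 2 markers 9 were lower, with a median of -0.12, summed signals from 1377 to 1852 with saline and from 1348 to 1719 with rhTM, and rhTM replicate 1 lowest in 7. Their mean deviations were 0.17, 0.17 and -0.14 with saline and -0.28, 0.07 and 0.0043 with rhTM. With the study's table, 7 of 10 and 5 of 10 were lower, with medians of -0.14 and 0.00027. Without rhTM replicate 1 the medians were -0.12 and 0.02. Medians of the other marker lists were -0.17 for alveolar type 1 cells, -0.11 for T and NK cells, -0.0035 for erythroid cells, 0.0058 for alveolar macrophages, 0.0063 for endothelium, 0.04 for neutrophil precursors, 0.05 for B and plasma cells, 0.10 for mature neutrophils, 0.14 for ciliated cells and 0.17 for fibroblasts. With the study's table these medians were, in the same order, -0.07, -0.0017, 0.27, -0.06, -0.06, 0.27, -0.32, 0.23, 0.51 and 0.19. Some other lists had their highest mean deviation on rhTM replicate 1. It was 0.35 for mature neutrophils (highest of the arrays in 6 of 9) and 0.54 for ciliated cells (6 of 8). It was 0.29 for neutrophil precursors (5 of 9) and 0.26 for erythroid cells (3 of 8). Other arrays came near it in some of them. Ciliated cells had 0.41 on rhTM replicate 3, against -0.69 on rhTM replicate 2. Saline replicate 1 had 0.24 for neutrophil precursors and 0.17 for erythroid cells. On rhTM replicate 1 fibroblast markers lay at -0.32, endothelial markers at -0.15 and alveolar macrophage markers at -0.04. Endothelial markers were lowest there in 6 of 12 and highest in 4 of 12. Alveolar macrophage markers were lowest there in 5 of 11 and highest in 3 of 11. Of all genes 26.6% were lowest and 29.8% highest on that array. The number of probes above background was also lowest on rhTM replicate 1. The part of these cell types and of signal quality in the values of the members was not tested.

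**Figure D5:**
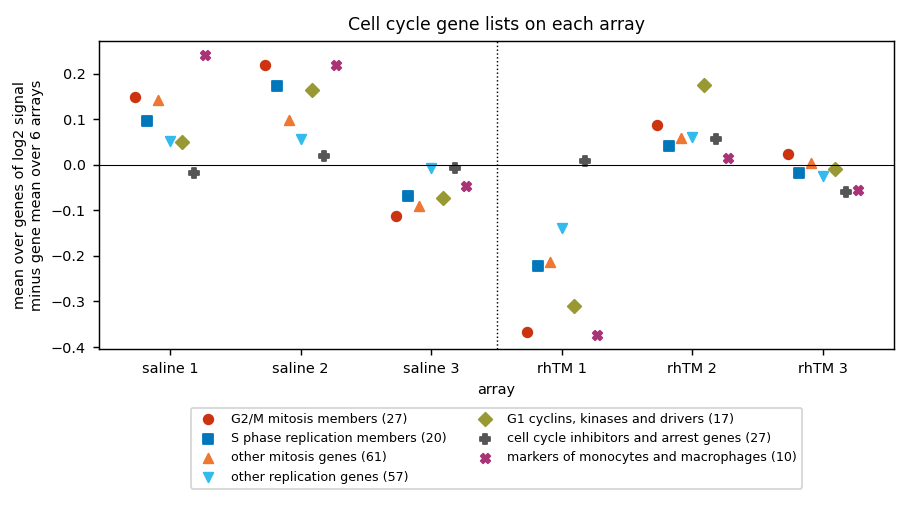
Mean over the genes of each list of the log2 signal minus the gene's own mean over 6 arrays (y axis), for each array (x axis), with the number of genes in brackets. On rhTM replicate 1 the G2/M members lie at -0.37, the S phase members at -0.22 and the monocyte and macrophage markers at -0.37, whereas the inhibitors lie near 0.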

How the data were processed

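Lung RNA of 6 mice was hybridised to 1-colour Agilent SurePrint G3 mouse arrays. The authors deposited the scanner output, whose processed signal is a background-corrected intensity on a linear scale, and a value table of the same intensity values. The submitters' processing notes name Feature Extraction 9.1 and the file headers 10.7.3.1. Control spots and 398 of 56605 probes with outlier flags were left out, spots of a probe were averaged, and the log2 signal minus the 75th percentile of each array was used. Accessions were matched to a RefSeq gene table of GRCm38.p6, which named 32994 of all probes, for 22911 genes. With the outlier-flagged probes left out, 22815 genes had a named probe. The array design uses another build, so no probe coordinates are given, and promoter coordinates are those of the RefSeq table. Each gene was read from its brightest probe among those well above background on every array of saline, of rhTM or of both. Groups came from the sample labels and were compared with limma 3.58.1 in R 4.3.3 (lmFit, eBayes, Benjamini-Hochberg over all genes, threshold 0.05). Single genes also had an exact two-sided permutation test. Lists were described by counts and medians. The fit was tested on simulated data. The number of arrays limits the precision.

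The members and lists were chosen with earlier results of these data known. Named genes were those set by role in each set, the 3 members per set and direction of smallest unadjusted p, members without overlap, the 2 genes per direction of smallest unadjusted p in each other cell cycle list, and Cdkn1a, Cdkn1b, Cdkn1c, Ccnd1, Ccnd2, Ccnd3 and Myc. Genes that this rule named but that are not described singly are among the counts. Alternatives were normexp (offset 50, on median spot signals), quantile normalisation, a 75th percentile taken over probes detected on every array, the study's table alone or with slides as blocks, other probe filters, the mean of a gene's probes, slide and replicate number as blocks, each array left out, both exchanged arrays left out, and the methods' t-test (fold of 2 or 0.5, p of 0.01).

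Marker lists were erythroid cells, neutrophil precursors, mature neutrophils, alveolar macrophages, monocytes and macrophages, T and NK cells, B and plasma cells, endothelium, alveolar type 2 and type 1 cells, fibroblasts and ciliated cells.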

Additional observations from a re-analysis of the deposited data

How the results depend on the processing

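Slides as blocks in the study's table gave 1 called member, Ttk, with 187 genes called higher and 245 lower and medians of -0.43 (G2/M) and -0.29 (S phase). There slide 2 holds only rhTM arrays, so the estimate rests on rhTM replicate 1. Cenpa had 0.077, Tyms -0.029 and Cdt1 0.011 in that fit. No member was called in any other fit, the single omissions included. Without both exchanged arrays 1 gene was called lower, 8 of 47 members lay below and 1 above without overlap (beside 21.5% and 20.0% of all genes), and the signs of Ccnb2 (-0.055), Foxm1 (0.074), Mcm4 (0.0055), Cdt1 (0.027) and Nusap1 (0.014) turned. Members below without overlap numbered 2 in the study's table with or without slides as blocks (12.0% of all genes), with a 75th percentile over probes detected on every array (3.65%) and with the mean of a gene's probes (3.44%). In the study's table signs turned for 10 members, Ccnb2 (-0.11), Aurka (0.028), Birc5 (0.017), Foxm1 (0.12), Mcm4 (0.021), Rrm2 (0.027), Cdt1 (0.055), Ccne1 (0.012), Cenpe (0.17) and Nusap1 (0.038), with normexp for Cdt1 (0.012), Bub1b (0.039) and Nusap1 (0.035), and with the mean of a gene's probes for Hmmr (0.33). The cause of these turns was not tested.

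Leaving out each array in turn, from the scanner output or the study's table, gave from 0 to 480 genes called higher and from 0 to 113 lower. Both maxima came without rhTM replicate 1 in the study's table, where no member was called. From 0 to 8 members lay above without overlap, the 8 (16.3% of 49) without rhTM replicate 1 in the study's table, beside 19.6% of all genes. From 1 to 19 lay below, the 19 (38.8% of 49) without saline replicate 3 in the scanner output, beside 8.24% of all genes. The sign turned in at least 1 omission for 30 of the 47 members, among them Bub1b, Cenpe, Cenpf, Kif20a, Kif23, Nusap1, Prc1, Melk, Hmmr and E2f8. For the other 20 the log2 fold changes from lowest to highest were -0.35 to 0.092 for Mki67, -0.34 to 0.17 for Cdk1, -0.29 to 0.093 for Ccna2, -0.21 to 0.15 for Ccnb2, -0.37 to 0.064 for Cdc20, -0.22 to 0.16 for Aurka, -0.26 to 0.081 for Bub1, -0.22 to 0.11 for Birc5, -0.14 to 0.024 for Cenpa, -0.21 to 0.39 for Foxm1, -0.072 to 0.058 for Mcm4, -0.064 to 0.016 for Pcna, -0.22 to 0.22 for Rrm2, -0.032 to 0.27 for Tyms, -0.29 to 0.0076 for Tk1, -0.18 to 0.0035 for Cdc6, -0.084 to 0.084 for Cdt1, -0.15 to 0.13 for Ccne1, -0.086 to 0.15 for Gins1 and -0.028 to 0.28 for Gins2. The medians ranged from -0.31 to 0.03 for the G2/M set and from -0.19 to -0.02 for the S phase set.

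Deviations of same-numbered arrays from their group means correlated at -0.30, 0.44 and -0.45 across genes. For the other pairs the correlations ran from -0.33 to 0.64. The highest was that of saline replicate 1 and rhTM replicate 3, which shared slide 2. Taken from the means of 3 arrays, these correlations depend on one another and cannot decide whether replicate numbers paired the arrays. With the replicate block 0 members were called, and no call differed from the fit without it. The number of arrays and the signal over background limit what could be seen, and Ttk, Kif11, Kif2c and Ccne2 were not well above background on every array.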
